A study of Homo sapiens with 72 samples.

Results

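The SR proteins, hnRNPs and CLK kinases form a set of 38 genes among the 61541 listed in each of 11 tables of differential expression from work on the stress granule protein G3BP1. They were taken by gene symbol and matched through their Ensembl identifiers, and all 38 were found. The set holds 14 SR and SR-like proteins (SRSF1 to SRSF12, TRA2A and TRA2B), 4 CDC-like kinases (CLK1 to CLK4) and 20 heterogeneous nuclear ribonucleoproteins (hnRNPs).

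SR proteins bind exon sequences in pre-mRNA through RNA recognition motifs and recruit the spliceosome through a domain rich in arginine and serine. CLK kinases phosphorylate that domain in the nucleus and so set the activity and location of SR proteins. hnRNPs coat nascent transcripts, often oppose SR proteins at splice sites, and many shuttle to the cytoplasm, where some enter stress granules. Several genes of these families control their own mRNA through retained introns or poison exons, which a count per gene does not show.

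The 72 libraries of the series include 24 used here, in 11 groups, and 48 that carry or control for RNA-editing fusions and were not analysed here. RNA immunoprecipitation with sequencing (RIP-seq) had 3 immunoprecipitated (IP) and 3 input libraries. Its cells were FlpIn 293 Trex, a human embryonic kidney line, with stably integrated FLAG-G3BP1 induced by 1 ug/mL tetracycline for 24 h. All other libraries came from U2OS, a human osteosarcoma line, 2 for each group. In the first experiment these were wild-type cells, G3BP1/2 knockout cells and knockout cells 24 h after transient transfection of G3BP1. The second used only G3BP1/2 knockout cells: untransfected, transfected for 24 h with wild-type G3BP1, or transfected for 24 h with G3BP1 lacking its NTF2 domain, the part through which the protein forms dimers. Each of these was left unstressed or given 200 uM sodium arsenite for 2 h, an oxidative stress that causes stress granules to form. The knockout groups were not transfected and no mock-transfected group is among them, so an effect of G3BP1 and an effect of transfection cannot be told apart. The labels do not say how many clones the knockout line comprises, or whether replicates were separate cultures, so p-values measure the spread between these libraries only.

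Whole reads per library were recovered from the deposited base means for both U2OS experiments and not for RIP. They are given as normalised reads (reads divided by the library's size factor, scaled separately in each experiment). Reads in genes ran from 37.69 to 51.22 M (1e6) per library in the first experiment and from 10.79 to 27.76 M in the second. G3BP1 itself, a targeted gene, had 19083 and 18244 normalised reads in wild type and 12677 and 12685 in knockout in the first experiment. Rescue had 20072 and 20304. The G3BP1 transcript was thus lower but still present in knockout cells. G3BP2, the other targeted gene, had 8650 and 8161 in wild type, 6636 and 6440 in knockout and 7734 and 7640 in rescue. In the second experiment G3BP1 had 3891 and 3959 in untreated knockout cells, 620821 and 590256 with wild-type rescue and 838587 and 804849 with the NTF2-deletion form. There G3BP2 had 1710 and 1692 in untreated knockout cells, 2398 and 2428 with wild-type rescue and 2395 and 2496 with the deletion form. G3BP1 reads made up 0.0435 to 0.0437% of gene reads in rescued cells of the first experiment and 3.83 to 6.22% in those of the second, so the rescues of the 2 experiments differed in expression level. Of 7 U2OS markers, COL1A1, SPARC, VIM, RUNX2 and ALPL were expressed, COL1A2 stayed below 30 normalised reads, and TWIST1 was at 0 in the first experiment and at most 1.12 in the second. Of 7 markers of 293 cells CDH2 reached 19300 and NEFL 4790 in U2OS. Of 7 markers of other cell types EPCAM reached 555 and VWF 308, and PTPRC, CD68, CDH1, KRT5 and PECAM1 stayed at or below 42.8 normalised reads. In RIP the base mean of the 293 markers was 1080 for NEFL, 785 for CDH2, 76.4 for EYA1 and 52.3 for SIX2. PAX2 had 45.8, LHX1 36.9 and NEFM 4.87. Of the U2OS markers VIM had 11600, TWIST1 210, RUNX2 69, SPARC 32.0, COL1A1 26.4, ALPL 20.4 and COL1A2 0. Of the other cell types EPCAM had 911, CDH1 22.8, VWF 1.89, CD68 0.532, PECAM1 0.275, and PTPRC and KRT5 0. The summed U2OS markers differed between groups: 312000 to 327000 in wild type, 148000 to 156000 in knockout and 201000 to 209000 in rescue of the first experiment. The summed 293 markers were 24500 to 25100, 11900 to 12600 and 16300 in the same order. Those of other cell types were 582 to 649, 723 to 762 and 493 to 515. The part of these sums in the results below was not tested.

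Promoter sequence is shown for 4 members that changed most under arsenite or changed differently between backgrounds, CLK1, TRA2B, SRSF3 and HNRNPH3, with CLK4 as a kinase of the same family that was not called under arsenite. The sequences are the 250 bases before the annotated start, from RefSeq on GRCh38.p14, 5′ to 3′ on the gene's strand. CLK1 is on the minus strand at chr2:200864659-200864908, TRA2B on the minus strand at chr3:185938015-185938264, SRSF3 on the plus strand at chr6:36594112-36594361, HNRNPH3 on the plus strand at chr10:68331443-68331692 and CLK4 on the minus strand at chr5:178627051-178627300. Capitals mark TGACG on either strand, the core letters of the cyclic AMP response element.
CLK1: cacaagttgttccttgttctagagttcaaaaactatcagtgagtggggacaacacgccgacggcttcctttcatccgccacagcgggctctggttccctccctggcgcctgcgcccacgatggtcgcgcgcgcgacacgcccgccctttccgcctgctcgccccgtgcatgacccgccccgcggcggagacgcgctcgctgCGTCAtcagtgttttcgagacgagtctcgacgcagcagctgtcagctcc
TRA2B: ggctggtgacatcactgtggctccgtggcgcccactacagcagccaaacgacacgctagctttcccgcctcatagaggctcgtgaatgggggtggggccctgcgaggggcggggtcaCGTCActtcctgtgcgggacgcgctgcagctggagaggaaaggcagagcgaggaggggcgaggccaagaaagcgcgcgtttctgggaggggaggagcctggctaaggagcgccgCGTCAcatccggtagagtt
SRSF3: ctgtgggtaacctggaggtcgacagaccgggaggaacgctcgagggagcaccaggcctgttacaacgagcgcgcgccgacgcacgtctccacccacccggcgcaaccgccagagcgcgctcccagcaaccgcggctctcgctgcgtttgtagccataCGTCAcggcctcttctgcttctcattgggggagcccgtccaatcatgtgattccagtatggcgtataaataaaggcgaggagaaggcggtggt
HNRNPH3: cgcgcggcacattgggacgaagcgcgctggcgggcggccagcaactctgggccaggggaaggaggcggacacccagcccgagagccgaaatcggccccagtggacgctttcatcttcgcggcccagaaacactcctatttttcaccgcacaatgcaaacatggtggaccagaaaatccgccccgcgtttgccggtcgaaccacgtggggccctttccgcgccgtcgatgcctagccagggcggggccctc
CLK4: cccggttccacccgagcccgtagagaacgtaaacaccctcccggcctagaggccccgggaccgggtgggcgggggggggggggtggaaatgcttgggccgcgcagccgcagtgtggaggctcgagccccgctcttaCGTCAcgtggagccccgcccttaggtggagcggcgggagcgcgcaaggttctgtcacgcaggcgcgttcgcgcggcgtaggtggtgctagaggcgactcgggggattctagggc

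Motifs were searched on both strands of windows of 300 bases (250 before and 50 after the start), in the first window listed for a gene. Of the 38 members 35 had a window, 12 of them more than 1. TGACG lay in 16 of 35 windows (45.7%), against 25.0% of 27305 windows of all genes. It was chosen after the 5 sequences had been seen, and those of them that hold it are counted among the 16. The windows of all genes were not matched to the members' for their share of G and C bases. TRA2B held it at -133 and -19 from the start, CLK1 at -49, SRSF3 at -93 and CLK4 at -114. The longer element TGACGTCA, which contains TGACG, lay in 0 of 35 windows against 1.98% of all, and the AP-1 letters TGANTCA in 0 of 35 against 7.76%. The heat shock factor letters GAANNTTC lay in 3 of 35 (8.57%; HNRNPA2B1, HNRNPC and SRSF8) against 6.87% of all.

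The first question was how these transcripts responded to arsenite in cells with and without G3BP1. In knockout cells 6 SR transcripts and CLK1 rose while 6 hnRNP transcripts fell. The authors' deposited table, read at an adjusted p below 0.05, called 7 of 38 members higher (8.56% of 15497 tested genes were called higher) and 6 lower (10.9% of genes). All 7 that rose were SR proteins or kinases: 6 of 14 SR genes and 1 of 4 kinases. Each of the 6 that fell was an hnRNP, of 20. The median log2 fold change in the authors' deposited table was 0.16 for SR genes, -0.10 for hnRNPs and -0.01 for all genes whose base mean reached 100. In bulk RNA, fewer cells of a kind and less RNA per cell cannot be told apart. In the same comparison the summed U2OS markers went from 51100 to 51400 normalised reads without arsenite to 35700 to 37000 with it. The summed 293 markers went from 3890 to 3930 down to 3050. Those of other cell types went from 270 to 274 down to 197 to 205. The part of these sums was not tested.

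CLK1, the kinase whose unspliced nuclear transcripts are known to be spliced in stressed cells, had the largest arsenite change of the set. Without arsenite it had 782 and 783 normalised reads in knockout cells, 735 and 730 with wild-type rescue and 624 and 593 with NTF2-deletion rescue. With arsenite it had 1683 and 1623 in knockout cells, 1273 and 1275 with wild-type rescue and 867 and 921 with the deletion form. All 6 treated libraries were above all 6 untreated ones, and the treated groups were ordered knockout, wild-type rescue, deletion rescue without overlap. The authors' deposited table gave CLK1 a log2 fold change of 1.06 in knockout (SE 0.10, adjusted p 1.05e-24). For the rescues the authors' deposited tables gave 0.76 with the wild-type form (SE 0.07, adjusted p 5.40e-27) and 0.48 with the deletion form (SE 0.10, adjusted p 2.00e-05).

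The other kinases did not pass the deposited test in any background. CLK2 had 816 and 778 normalised reads in untreated knockout cells and 707 and 722 with arsenite. The authors' deposited tables put it at -0.14, -0.17 and -0.27 in knockout, wild-type rescue and deletion rescue (adjusted p 0.508, 0.0953 and 0.0515). CLK3 went from 497 and 488 to 678 and 583 in knockout cells, with 0.35 in the authors' deposited table (SE 0.14, adjusted p 0.057). CLK4 had 291 and 250 without and 224 and 241 with arsenite in knockout cells, and -0.19 in the authors' deposited table (SE 0.19, adjusted p 0.595). In the rescues the authors' deposited tables had it at 0.29 and 0.14 (adjusted p 0.163 and 0.718). Over the whole experiment CLK2 was lower and CLK3 higher in all 6 treated libraries than in all 6 untreated ones, at 633 to 759 against 778 to 876 and at 577 to 678 against 488 to 570. This was seen in the values and not tested, and each side mixes 3 backgrounds. The share of all genes separated in this way was not worked out.

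**Figure D1:**
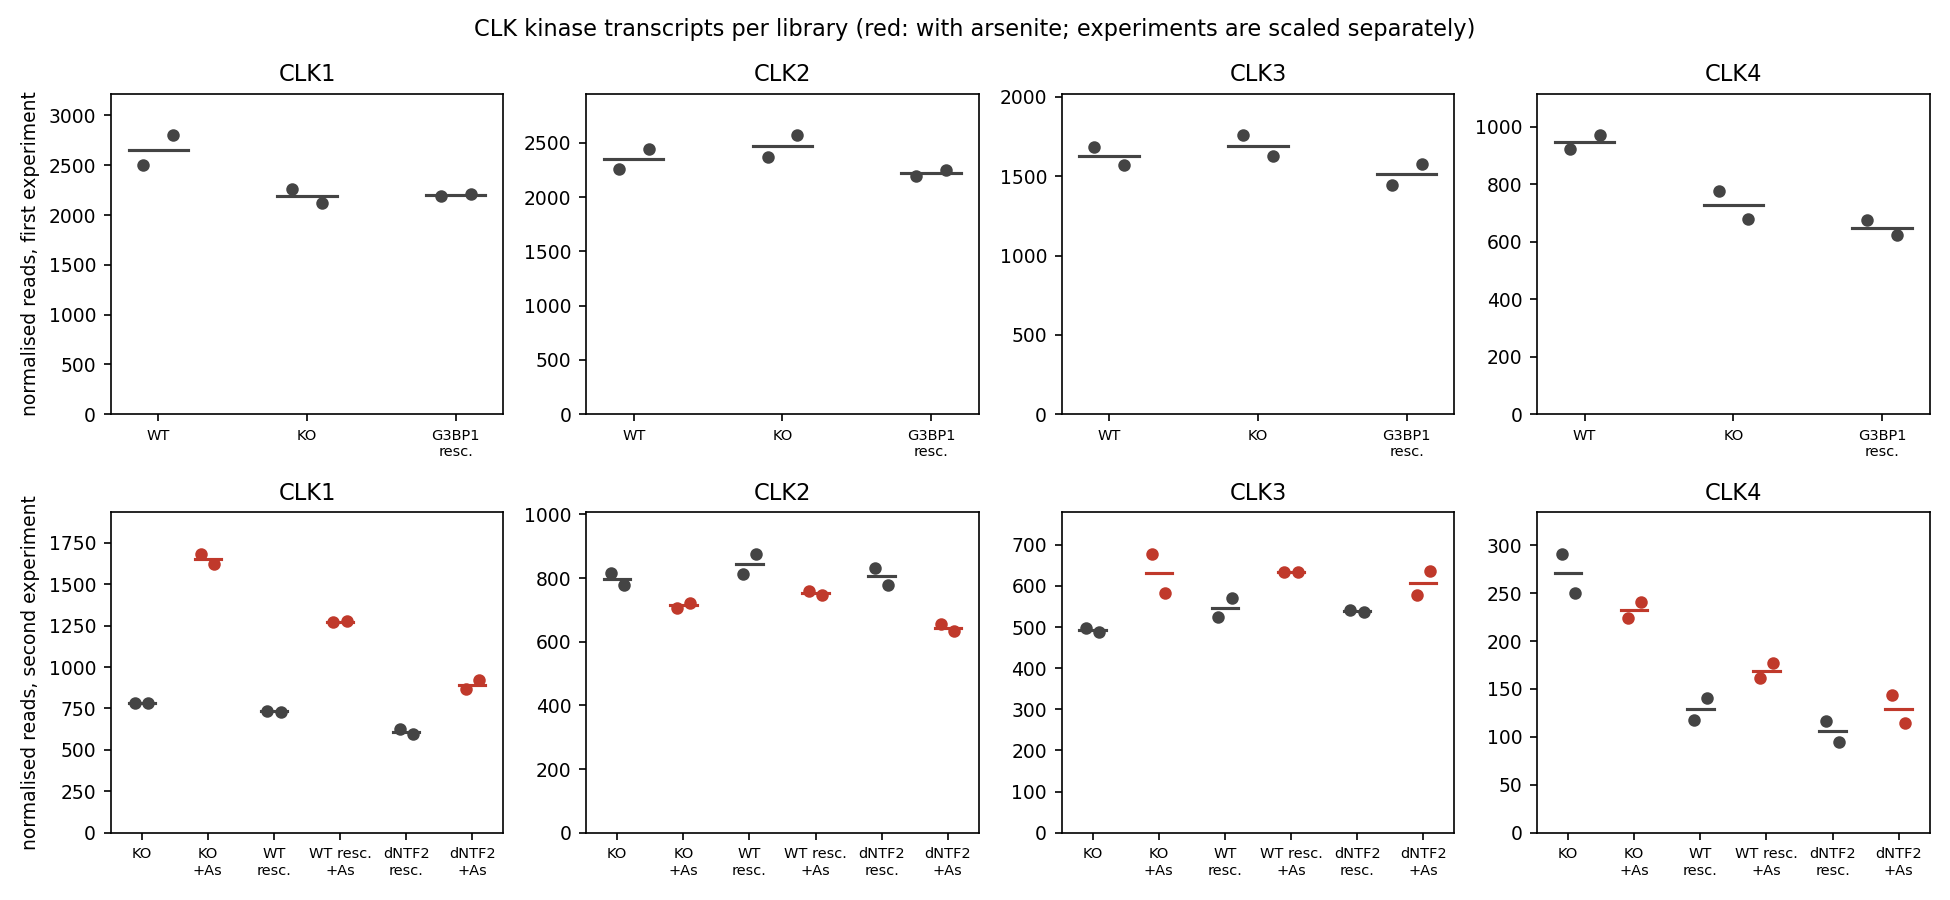
Normalised reads (y axis, from 0) of CLK1 to CLK4 per library in the first experiment (upper row) and second experiment (lower row); each point is 1 library, each bar the mean of 2, and red marks arsenite. CLK1 rose from 782 and 783 to 1683 and 1623 in knockout cells (KO), and CLK4 was lower in both rescues (WT, wild-type G3BP1; dNTF2, NTF2-deletion form) than in untreated knockout cells.

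TRA2B, an SR-like activator of exon inclusion, was the SR transcript with the largest arsenite change. It had 2485 and 2296 normalised reads in knockout cells and 3886 and 3973 with arsenite. In wild-type rescue it had 3643 and 3690 without and 4479 and 4310 with arsenite, and in deletion rescue 3382 and 3659 without and 4279 and 4201 with it. Rescued cells thus started above untreated knockout cells, and the treated groups lay closer together than the untreated ones. The authors' deposited tables gave 0.72 in knockout (SE 0.08, adjusted p 3.18e-19), 0.25 in wild-type rescue (SE 0.04) and 0.26 in deletion rescue (SE 0.06).

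SRSF3, the smallest SR protein and a regulator of mRNA export as well as splicing, showed a like pattern. It went from 3333 and 3353 to 4248 and 4675 normalised reads in knockout cells, and from 4493 and 4498 to 4882 and 4890 in wild-type rescue. In deletion rescue it had 4536 and 4807 without and 5022 and 4930 with arsenite. The groups did not overlap in any background, and the authors' deposited tables gave 0.42, 0.11 and 0.09 (SE 0.07, 0.04 and 0.05), the last not called (adjusted p 0.345).

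SRSF5 had 4153 and 4273 normalised reads in knockout cells and 5543 and 5846 with arsenite. It had 3848 and 3729, then 4460 and 4556, in wild-type rescue, and 3647 and 4094, then 4157 and 4270, in deletion rescue. The authors' deposited tables put it at 0.44, 0.23 and 0.12 (SE 0.07, 0.04 and 0.06), with the deletion rescue not called (adjusted p 0.249). SRSF6 rose by 0.47 and SRSF4 by 0.33 in knockout cells in the authors' deposited table (SE 0.10 and 0.09), and TRA2A, the paralog of TRA2B, by 0.35 (SE 0.11). SRSF4 went from 1488 and 1508 to 1916 and 1843 normalised reads, SRSF6 from 1321 and 1176 to 1719 and 1742, and TRA2A from 942 and 879 to 1159 and 1153. SRSF1, the founding member of the family, was not called in knockout cells, with 1492 and 1343 before and 1178 and 1335 after arsenite and -0.16 in the authors' deposited table (adjusted p 0.357).

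**Figure D2:**
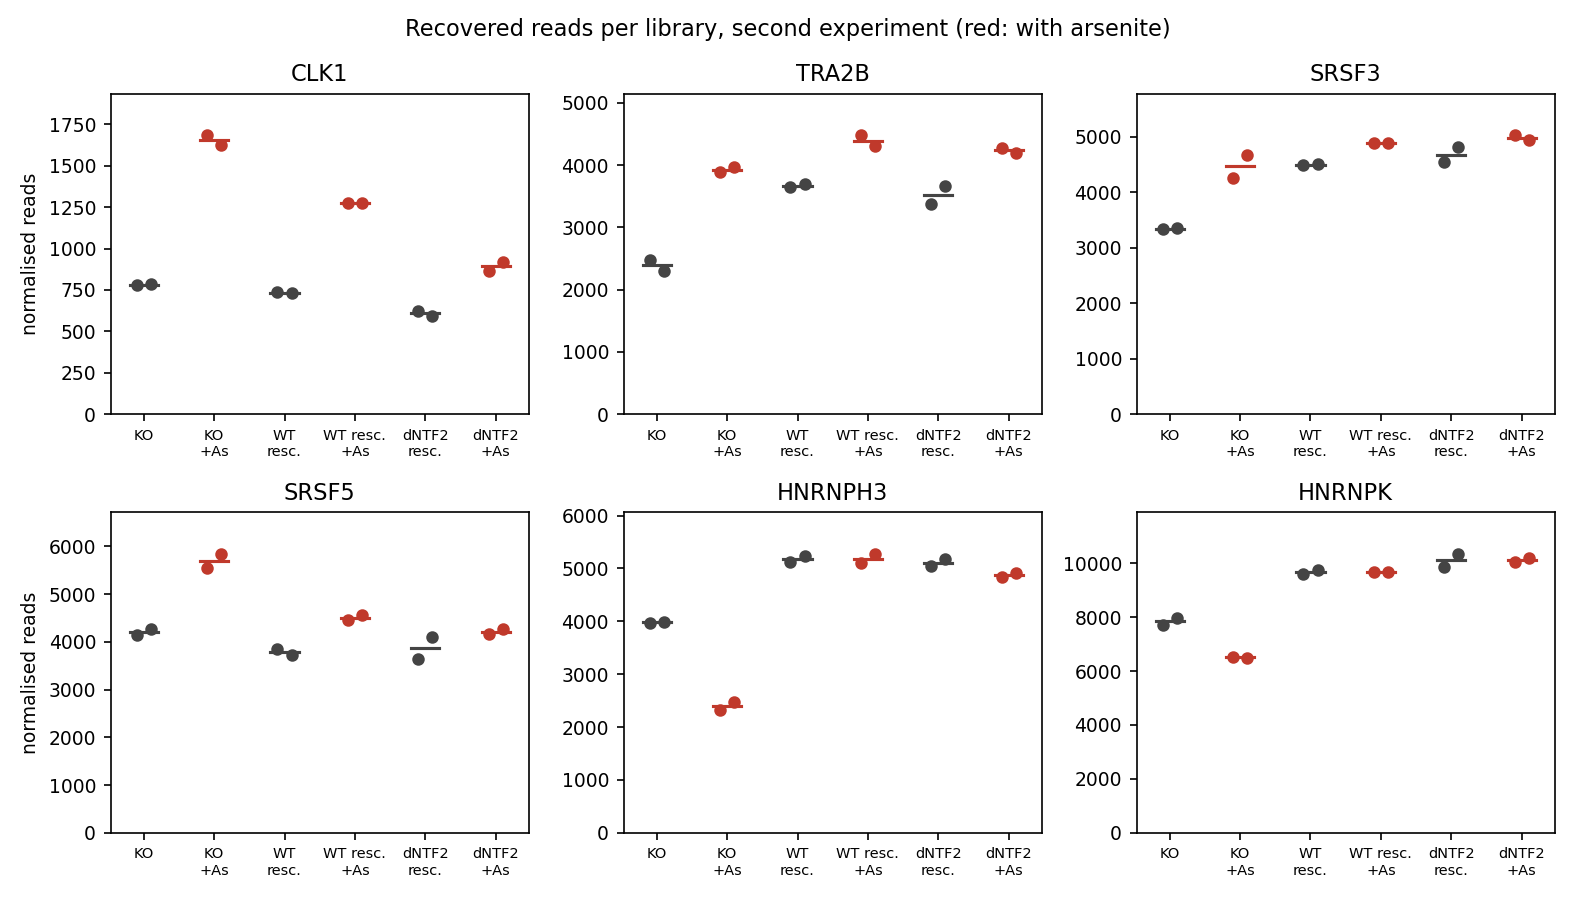
Normalised reads per library (y axis, from 0) of 4 transcripts that rose and 2 that fell with arsenite in knockout cells; points are libraries, bars means of 2, red marks arsenite. HNRNPH3 fell from 3974 and 3996 to 2329 and 2483 in knockout cells (KO) and stayed between 4844 and 5277 in the rescues (WT, wild-type G3BP1; dNTF2, NTF2-deletion form).

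HNRNPH3, a G-run binding protein related to HNRNPH1 and HNRNPF, had the largest fall. It had 3974 and 3996 normalised reads in knockout cells and 2329 and 2483 with arsenite, while wild-type rescue had 5130 and 5228 without and 5098 and 5277 with it. In deletion rescue the values were 5044 and 5170, then 4844 and 4912. The treated knockout libraries were below every other library of the experiment. The authors' deposited table gave -0.71 in knockout (SE 0.07, adjusted p 1.05e-19), and those of the rescues gave -0.01 and -0.06 (adjusted p 0.903 and 0.605).

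HNRNPK, a poly-C binding protein with roles in transcription and translation, had 7720 and 7972 normalised reads in knockout cells and 6520 and 6494 with arsenite. HNRNPA1, a shuttling repressor of exon inclusion, went from 9396 and 9214 to 8030 and 7673. HNRNPUL1 went from 8020 and 8631 to 7175 and 6822, HNRNPD, an AU-rich element binding protein, from 5637 and 6174 to 5112 and 4933, and HNRNPU, a nuclear scaffold protein, from 11456 and 11778 to 10503 and 10157. None of these pairs overlapped. The authors' deposited table put them at -0.26, -0.23, -0.24, -0.22 and -0.16 (adjusted p 0.000163, 0.000762, 0.00135, 0.00778 and 0.0273). Across the set 29 of 38 members did not overlap between treated and untreated knockout libraries, where 62.0% of 16928 genes whose base mean reached 10 did not.

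In wild-type rescue, arsenite raised 11 of 37 tested members and lowered 0, where 8.18% of 13635 genes were called higher and 12.2% lower in the authors' deposited table. SRSF12, a lowly expressed member at 15.1 to 19.5 normalised reads, had no adjusted p there. Those 11 were 7 SR genes, CLK1 and 3 hnRNPs, HNRNPA2B1, HNRNPDL and HNRNPH2, at 0.12, 0.10 and 0.18 in the authors' deposited table. With fold changes centred on the table's median, 7 of the 11 were still called (6.82% of genes higher and 13.1% lower), and SRSF3, SRSF4, HNRNPDL and HNRNPH2 were not. The 7 members that rose in knockout cells were all among the 11. In deletion rescue, CLK1 and TRA2B were the 2 of 37 members called higher (2.43% of 11578 genes) and 0 were called lower (6.14%) in the authors' deposited table; after centring CLK2 was called lower (2.11% of genes higher and 6.64% lower). CLK1 and TRA2B rose in all 3 backgrounds. The summed U2OS markers moved in the rescues too, from 35000 to 35400 down to 28400 to 28600 in wild-type rescue. In deletion rescue they went from 36200 to 37400 down to 31100 to 31200. For 293 markers the sums went from 2180 to 2280 down to 1880 to 1900 in wild-type rescue. In deletion rescue those went from 2300 to 2320 down to 1970 to 1990. For other cell types they went from 123 down to 81.0 to 86.6, and from 108 to 114 down to 101 to 109. The part of these sums was not tested.

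**Figure D3:**
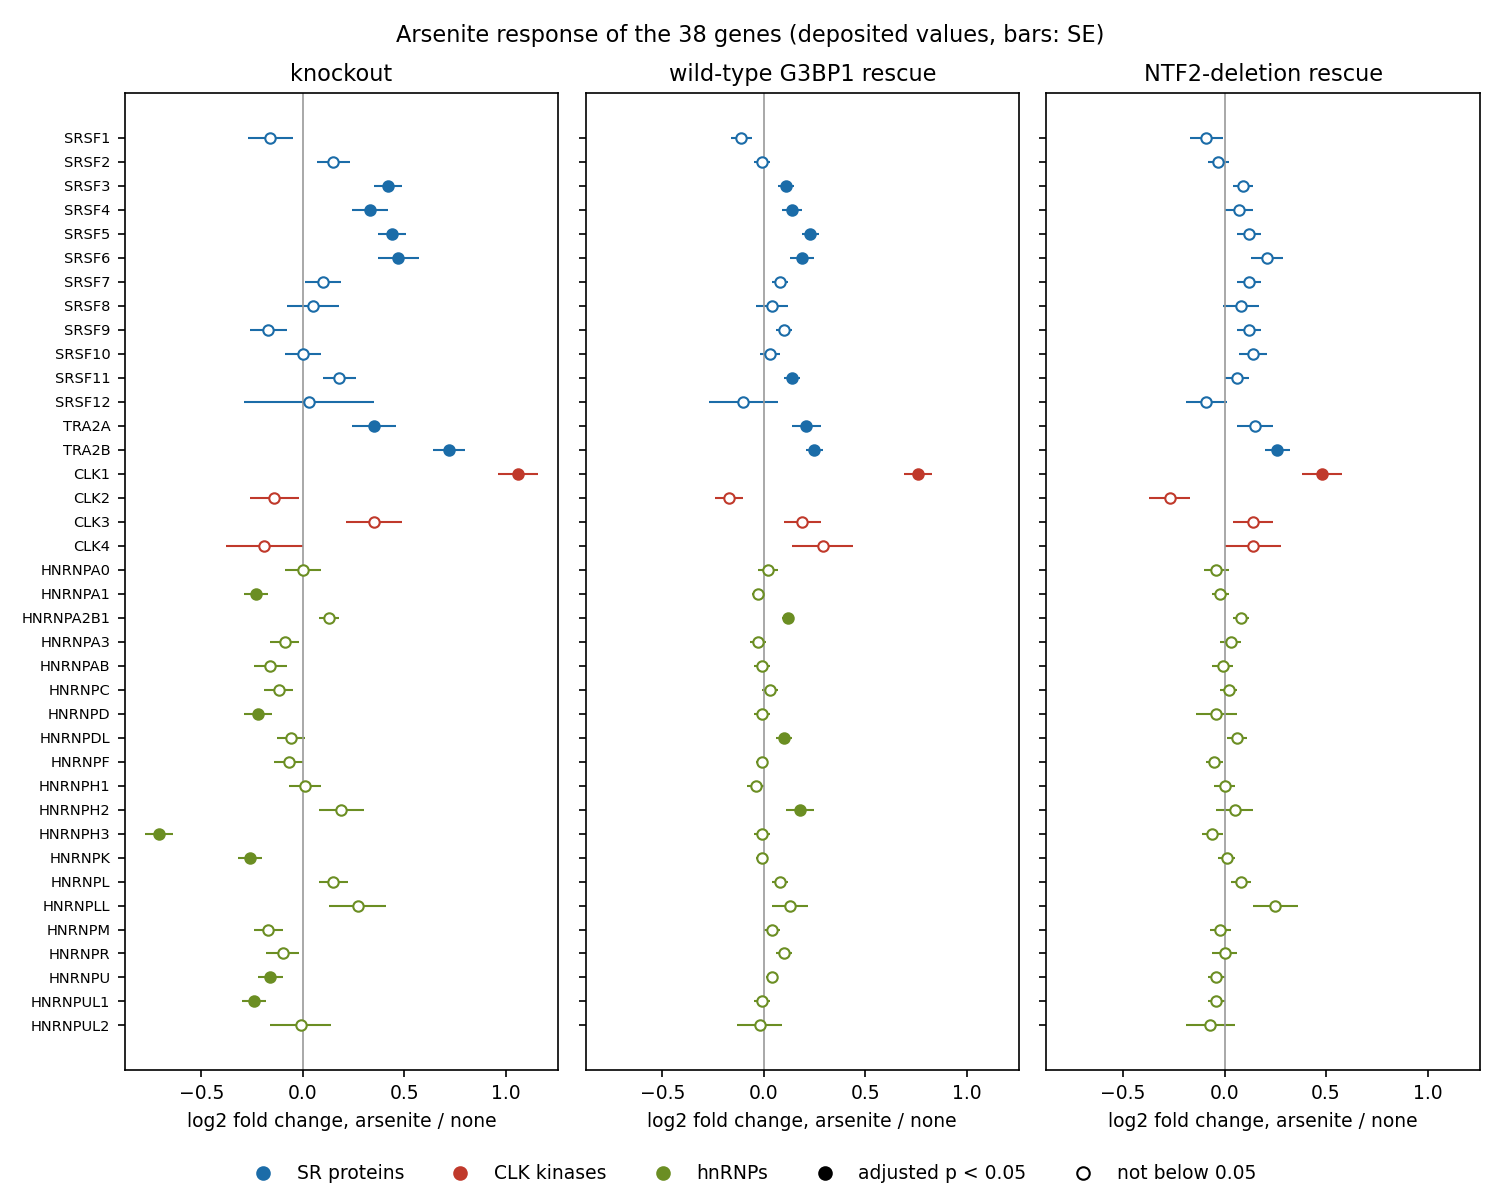
Log2 fold change with arsenite (x axis) of the 38 genes (y axis) in knockout cells and both rescues, from the authors' deposited tables; bars are the authors' standard errors, filled points have an adjusted p below 0.05, and colours mark the families. In knockout cells 6 SR genes and CLK1 lie to the right and 6 hnRNPs to the left; in wild-type rescue 11 lie to the right, and in deletion rescue CLK1 at 0.48 and TRA2B at 0.26.

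Whether the arsenite response differed between backgrounds was tested as the difference of the deposited fold changes over the combined standard error, adjusted by the Benjamini-Hochberg method over all genes whose base mean reached 10 in both tables. Between wild-type rescue and knockout, 4 of 38 members had a higher response in the rescue (1.82% of 15648 genes) and 2 a lower one (2.68%). HNRNPH3 differed by 0.70 (SE 0.08, adjusted p 1.62e-14), HNRNPK by 0.24 (adjusted p 0.0115), HNRNPUL1 by 0.23 (adjusted p 0.0341) and HNRNPU by 0.20 (adjusted p 0.0476). TRA2B differed by -0.47 (SE 0.09, adjusted p 4.72e-06) and SRSF3 by -0.32 (adjusted p 0.00552). For CLK1 the difference was -0.30 (95% interval -0.54 to -0.06) and did not pass (adjusted p 0.158). limma-voom on the recovered reads, chosen after seeing the data, called 14 members here (10.7% of 16705 genes either way), among them CLK1 at -0.28 (adjusted p 0.043).

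Between deletion rescue and knockout, 3 members had a higher response in the rescue (4.04% of 15442 genes) and 4 a lower one (3.08%). HNRNPH3 differed by 0.64 (adjusted p 3.14e-11), HNRNPK by 0.26 (adjusted p 0.00627) and HNRNPA1 by 0.21 (adjusted p 0.0379). CLK1 differed by -0.58 (SE 0.14, adjusted p 0.000866), TRA2B by -0.46 (adjusted p 5.89e-05), SRSF3 by -0.33 (adjusted p 0.00541) and SRSF5 by -0.32 (adjusted p 0.00665). The deposited fold changes were shrunk more strongly in the rescue tables, and limma-voom, which shrinks no fold change, gave -0.52 for CLK1 and 0.66 for HNRNPH3. Both difference tests use the same untreated and treated knockout libraries.

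The rescues were compared with each other in 3 ways by this test, and no member passed. For the arsenite response the members' differences ran from -0.13 (HNRNPLL) to 0.28 (CLK1), with 0.328% of 15865 genes called either way. CLK1 had a 95% interval of 0.04 to 0.52 (adjusted p 0.905), so the interval does not show the responses to be alike. Members with an unadjusted p below 0.05 numbered 1 for the arsenite response, 0 for rescue against knockout without arsenite (0.0185% of 16210 genes called either way) and 2 for treated rescue against untreated knockout (0.0785% of 16553 genes). The last 2 tests subtract tables that share their knockout libraries, so their standard errors count the spread of those libraries 2 times and are too wide; 0.716% and 1.20% of all genes had an unadjusted p below 0.05, and 0 members called there does not show the rescues to be alike. CLK1 differed by 0.54 in the last (95% interval 0.25 to 0.83, adjusted p 0.205, both on that wide standard error). limma-voom on recovered reads, which compares the treated rescues directly, called 2 members there, where 3.22% of 16705 genes were called either way: CLK1, higher by 0.51 with wild-type G3BP1 (adjusted p 1.01e-07), and SRSF11 by 0.16 (adjusted p 0.0444). Without any 1 of the 4 treated libraries CLK1 was still called (adjusted p 1.14e-05 to 0.000402) and SRSF11 was not (0.206 to 0.317). It called 0 members for the arsenite response (0.132% of genes) and 0 without arsenite (1.08%).

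Rescue was compared with knockout in both experiments, which share no libraries. In both, 9 of 14 SR and 9 of 20 hnRNP transcripts were called higher in rescue than in knockout. The share of all genes called so in both experiments was not worked out. The counts in both, here and below, thus have no background beside them. In the first experiment, knockout was lower than rescue for 24 of 38 members (21.5% of 22945 genes) and higher for 1 (16.1%), SRSF12, which the authors' deposited table put at 0.72 (SE 0.28, adjusted p 0.0337), with 84.9 and 94.9 normalised reads against 50.5 and 40.3. The 24 were 10 SR genes and 14 hnRNPs, and 0 of 4 kinases. In the second experiment, wild-type rescue was higher than knockout for 22 members (23.0% of 20738 genes) and lower for 1 (19.1%) in the authors' deposited table; centred on a table median of 0.18, the split was 19 higher and 6 lower (17.3% and 25.0% of genes). For 18 members both held, 75.0% of the 24 and 81.8% of the 22, and for 14 (6 SR genes and 8 hnRNPs) with both tables centred. In the second experiment the summed markers were lower in wild-type rescue than in untreated knockout too: 35000 to 35400 against 51100 to 51400 normalised reads for U2OS, 2180 to 2280 against 3890 to 3930 for 293 cells and 123 against 270 to 274 for other cell types. Their part was not tested.

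HNRNPAB, a CArG-box and AU-rich binding protein, had 9386 and 9337 normalised reads in knockout and 14500 and 14923 in rescue in the first experiment, with wild type at 13001 and 12325. In the second it had 2565 and 2834 in untreated knockout, 4768 and 4816 with wild-type rescue and 5282 and 5268 with the deletion form. Knockout was lowest in both experiments, without overlap. The authors' deposited tables gave -0.67 for knockout against rescue (SE 0.04, adjusted p 1.20e-50) and 0.88 and 1.01 for the rescues against knockout in the second experiment (SE 0.07 each).

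HNRNPF, which binds G-runs near splice sites and poly-A sites, had 18479 and 17509 normalised reads in knockout and 23013 and 22888 in rescue in the first experiment, with wild type at 18457 and 17022. In the second it had 4869 and 5334 in knockout and 9399 and 9176 with wild-type rescue. Wild-type cells were at the knockout level here, unlike for HNRNPAB. The authors' deposited tables gave -0.37 for knockout against rescue and 0.91 for wild-type rescue against knockout (SE 0.04 and 0.06). SRSF7, an SR protein with a zinc knuckle, had 1534 and 1674 in untreated knockout, 2783 and 2733 with wild-type rescue and 2809 and 2850 with the deletion form, and its value in the authors' deposited table was 0.83 for the wild-type form (SE 0.08). SRSF2, a nuclear SR protein, had 9660 and 9762 in knockout and 12917 and 13156 in rescue of the first experiment, with -0.45 in the authors' deposited table (SE 0.04).

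CLK4, the kinase closest to CLK1, went the other way in the second experiment. It had 291 and 250 normalised reads in untreated knockout, 118 and 141 with wild-type rescue and 117 and 95 with the deletion form. Every rescued library, treated ones included, was below every knockout library. The authors' deposited tables gave -0.98 (SE 0.23, adjusted p 9.52e-05) and -1.24 (SE 0.24, adjusted p 8.73e-07). In the first experiment CLK4 had 778 and 678 in knockout and 677 and 622 in rescue, and knockout against rescue was not called at 0.14 in the authors' deposited table (adjusted p 0.428). CLK1 was not called between wild-type rescue and knockout in the second experiment (-0.04, adjusted p 0.811) and was lower in deletion rescue (-0.31, adjusted p 0.0342), per the authors' deposited tables. CLK2 was at 0.13 and 0.06 and CLK3 at 0.20 and 0.18 for the 2 forms in the authors' deposited tables, none called.

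**Figure D4:**
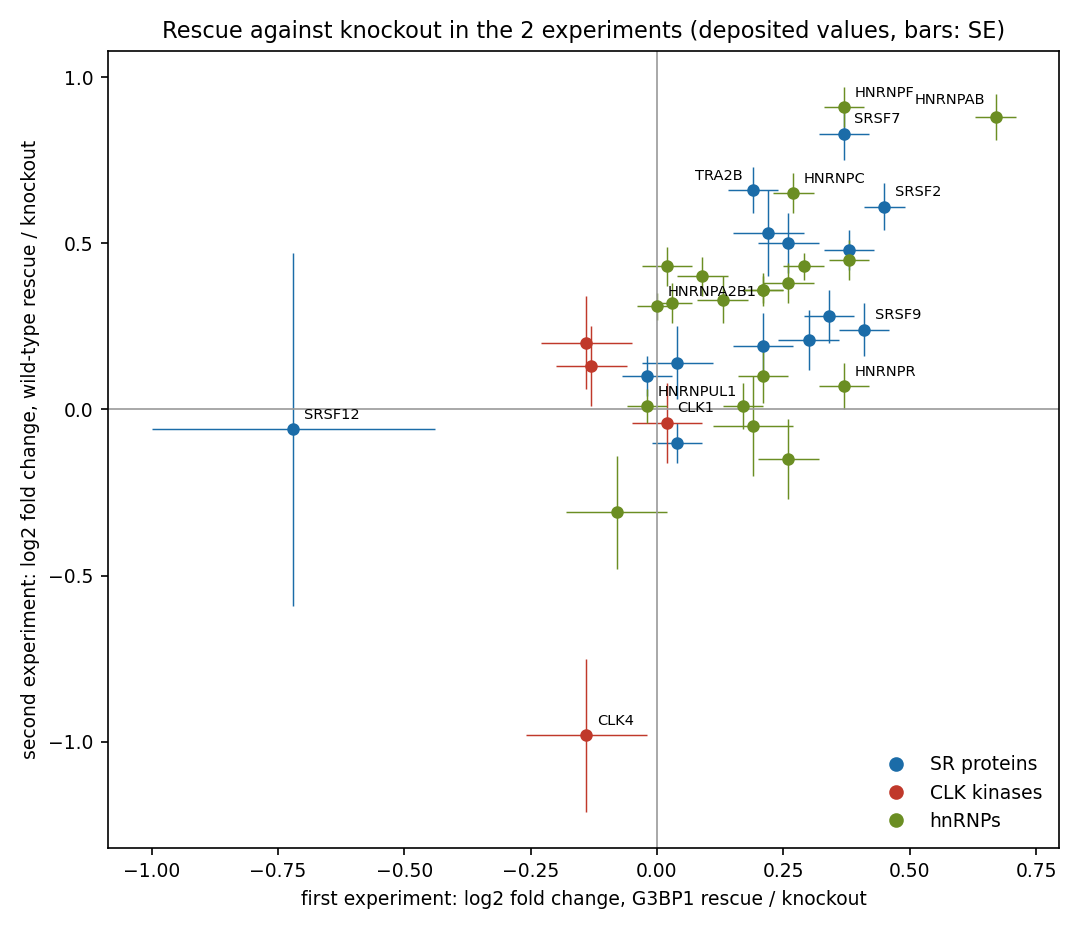
Log2 fold change of G3BP1 rescue over knockout in the first experiment (x axis, the sign of the deposited value turned) against wild-type rescue over knockout in the second (y axis); points are the 38 genes, bars the authors' standard errors, colours the families. Called or not, 11 of 14 SR genes and 16 of 20 hnRNPs lie above 0 on both axes, HNRNPAB at 0.67 and 0.88, while CLK4 lies at -0.98 on the y axis. All genes whose base mean reached 100 had a median of 0.18 on the y axis. On the x axis their median was -0.05 before the sign was turned. The share of all genes above 0 on both axes was not worked out.

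The deletion form gave 22 members higher than knockout (22.8% of 20911 genes) and 2 lower (18.7%) in the authors' deposited table, and 19 and 6 after centring on 0.17 (17.1% and 24.3% of genes). Its knockout libraries are those of the wild-type comparison. HNRNPAB was highest at 1.01, followed by HNRNPF at 0.94, SRSF7 at 0.87 and HNRNPC, a nuclear hnRNP of the core particle, at 0.73 in the authors' deposited table. With arsenite in the rescued cells only, 30 members were higher than in untreated knockout with wild-type G3BP1 (25.1% of 22192 genes) and 29 with the deletion form (23.3% of 21660), and 1 was lower in each (19.8% and 19.6%), CLK4, at -0.57 and -0.97 in the authors' deposited tables. Centred on medians of 0.22 and 0.19, the splits were 23 higher and 4 lower (18.2% and 27.2% of genes), and 20 higher and 4 lower (17.5% and 25.7%). In these 2 comparisons rescue and stress change together. TRA2B was at 0.97 and 0.89 and SRSF7 at 0.97 and 1.00 in the authors' deposited tables, and CLK1 at 0.80 and 0.26 (SE 0.10 and 0.11).

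Knockout and wild-type cells differed less evenly. Of 38 members 14 were lower in knockout (19.4% of 25724 genes) and 4 higher (18.4%) in the authors' deposited table. With p-values adjusted over genes whose base mean reached 10, 18 members and 47.0% of 20718 genes were called either way. SRSF10, a splicing repressor when dephosphorylated, had 10877 and 11376 normalised reads in wild type, 7017 and 6700 in knockout and 8546 and 8578 in rescue. The 3 groups did not overlap, and rescue lay between the others. The authors' deposited table gave -0.70 for knockout against wild type (SE 0.05, adjusted p 3.03e-36). SRSF4 had 5358 and 5479 in wild type, 4045 and 3759 in knockout and 4684 and 4804 in rescue, and -0.47 in the authors' deposited table (SE 0.06). HNRNPAB was at -0.44, HNRNPLL, a regulator of CD45 splicing in lymphocytes, also at -0.44, HNRNPH1 at -0.40 and CLK4 at -0.37 in the authors' deposited table. The authors' deposited table had CLK1 lower too, at -0.27 (SE 0.08, adjusted p 0.00367), with 2499 and 2800 in wild type and 2264 and 2123 in knockout, and CLK2 and CLK3 were not called (0.07 and 0.05).

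HNRNPA2B1, an RNA-binding protein of RNA transport granules, was the member with the largest rise in knockout. It had 35565 and 34461 normalised reads in wild type and 54209 and 52773 in knockout, and rescue stayed at 51382 and 54120. The authors' deposited tables gave 0.61 for knockout against wild type (SE 0.04, adjusted p 1.44e-42) and 0.00 for knockout against rescue (adjusted p 0.97). Among called members HNRNPUL1 followed at 0.38, then HNRNPDL at 0.20 and HNRNPH3 at 0.14 in the authors' deposited table. SRSF12 at 0.32 and TRA2A at 0.16 were not called. HNRNPUL1 had 22395 and 21015 in wild type, 29062 and 27629 in knockout and 26853 and 28305 in rescue, so knockout and rescue overlapped. Wild type against rescue had 7 members higher (15.2% of 22861 genes) and 21 lower (20.4%) in the authors' deposited table. CLK4 at 0.49, SRSF10 at 0.34, HNRNPLL at 0.24 and CLK1 at 0.23 were the 4 highest of the called members, and HNRNPA2B1 at -0.62, SRSF9 at -0.46, HNRNPF at -0.40 and HNRNPUL1 at -0.38 the 4 lowest, in the authors' deposited table. CLK2 and CLK3 were at 0.05 and 0.07 and not called.

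RIP-seq asked which of these transcripts were recovered with FLAG-G3BP1. The authors' deposited table, with 3 libraries per group and no values per library recovered here, called 22 of 38 members higher in IP (24.7% of 22856 genes) and 7 lower (31.4%). SR transcripts were mostly on the higher side, 10 of 14 with 1 lower, and the kinases on the lower, 1 of 4 higher and 2 lower, while hnRNPs had 11 of 20 higher and 4 lower. The medians in the authors' deposited table were 0.58 for SR genes, 0.31 for hnRNPs and -0.67 for kinases, beside 0.12 for all genes. Centred on that median, 19 members were higher and 9 lower (22.4% and 34.0% of genes). With p-values adjusted over genes whose base mean reached 10, 30 members and 76.4% of 14779 genes were called either way. FlpIn 293 Trex cells express these genes at levels of their own, and IP against input has no control immunoprecipitation among the groups used.

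In the authors' deposited table HNRNPC had the highest value at 1.83 (SE 0.14, adjusted p 1.16e-37), followed by HNRNPF at 1.47, SRSF9 at 1.40 and SRSF7 at 1.35. TRA2B was at 1.05 and SRSF3 at 0.70 in the authors' deposited table. At the other end were HNRNPUL2 at -2.32 (SE 0.18, adjusted p 1.28e-38), CLK2 at -1.56, CLK4 at -1.03 and HNRNPU at -0.92, all from the authors' deposited table. CLK1 was at -0.31 and not called (adjusted p 0.0652), and was called lower after centring, while CLK3 at 0.33 was called higher in the authors' deposited table (adjusted p 0.0331) and not after centring. Among paralogs the authors' deposited table had HNRNPUL1 at -0.18 beside HNRNPUL2 at -2.32, HNRNPF at 1.47 beside HNRNPH1 at -0.02, and TRA2A at 0.80 beside TRA2B at 1.05. HNRNPUL1 and HNRNPH1 were not called, HNRNPUL1 was called lower after centring, and the differences between paralogs were not tested. Over the 38 members the RIP fold change had a Spearman correlation of 0.00 with the gene's length on the chromosome (RefSeq, GRCh38.p14), beside -0.51 over 9981 genes whose base mean reached 100.

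**Figure D5:**
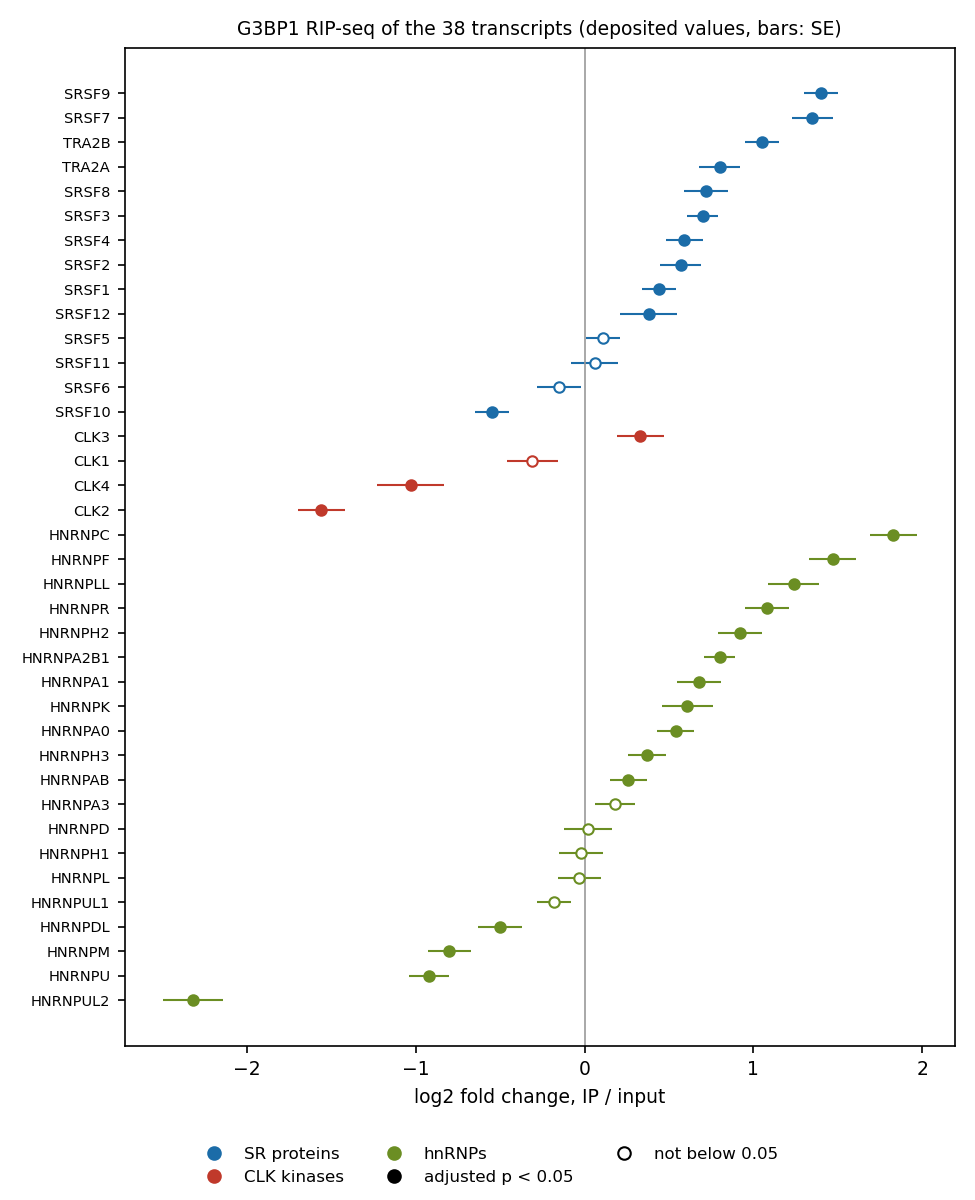
Log2 fold change of IP over input (x axis) for the 38 transcripts (y axis), ordered within families, from the authors' deposited table; bars are the authors' standard errors over 3 libraries per group and filled points have an adjusted p below 0.05. HNRNPC at 1.83 is highest and HNRNPUL2 at -2.32 lowest, and 3 of the 4 kinases lie below 0.

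Members higher in IP were set beside those that changed in U2OS, 2 measurements from different cell lines. Of all 38 members 22 were higher in IP (57.9%), the share to hold beside each count below. The overlaps were not tested, and the same overlaps over all genes were not worked out. Of the 22 members higher in wild-type rescue of the second experiment, 15 were higher in IP, 68.2% of either list, and 4 were lower in IP. Of the 24 lower in knockout than in rescue in the first experiment, 17 were higher in IP, 70.8% of the 24 and 77.3% of the 22 higher in IP. Of the 7 members that rose with arsenite in knockout cells, 4 were higher in IP (57.1%), and of the 6 that fell, 3 (50.0%).

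A list of 56 other splicing genes, SR protein kinases, spliceosome subunits and further RNA-binding regulators, gives the surroundings. With arsenite 7 of 55 tested were higher and 6 lower in knockout (8.56% and 10.9% of all genes), 9 of 55 and 4 in wild-type rescue (8.18% and 12.2%), and 5 of 54 and 2 in deletion rescue (2.43% and 6.14%). In knockout cells the 2 highest called genes in the authors' deposited table were the kinase DYRK1A and the splicing regulator MBNL2, both at 0.49. The 2 lowest called genes were TAF15 at -0.34 and RBMX at -0.33. The highest called genes in both rescues were DYRK3, a kinase that dissolves condensates, at 0.24 and 0.30, and the SR-like RBM25. RBM25 was at 0.24 and 0.22. The lowest called were SRRM2, a core protein of nuclear speckles, at -0.30 and -0.29 and PRPF8 at -0.17 and -0.15, in the authors' deposited tables. Rescue was higher than knockout for 37 of 56 with wild-type G3BP1 (23.0% of all genes) and 40 of 55 with the deletion form (22.8%), and lower for 4 each (19.1% and 18.7%). After centring 31 were higher and 8 lower with the wild-type form (17.3% and 25.0%), and 29 and 8 with the deletion form (17.1% and 24.3%). EFTUD2, a spliceosomal GTPase, stood highest at 1.01 and 1.13 and MBNL2 lowest at -1.82 and -1.52 in the authors' deposited tables, with SRPK1, an SR protein kinase, at 0.92 next to EFTUD2 for the wild-type form, SNRPB at 0.95 for the deletion form, and RBFOX2 at -0.58 and -0.51.

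In the first experiment 16 of 56 other splicing genes were lower in knockout than in wild type and 15 higher (19.4% and 18.4% of all genes). In the authors' deposited table PNN, a speckle protein, was lowest at -1.48 and SRPK2 next at -0.81, while RNPS1 at 0.71 and RALY at 0.62 had the largest rises. Against rescue 32 of 55 were lower and 8 higher (21.5% and 16.1%), from PNN at -0.75 and SRPK2 at -0.55 to MATR3 at 0.57 and SRRM2 at 0.39 in the authors' deposited table. In RIP 21 of 55 were higher and 27 lower (24.7% and 31.4%), with SNRPB at 2.24 and PPP1CA at 2.09 highest and MATR3 at -3.89 and SRRM2 at -3.60 lowest in the authors' deposited table. SR genes thus had a median of 0.58 and the other splicing genes one of -0.22 in that authors' deposited table. Many of the genes named here, HNRNPA1, HNRNPC and HNRNPK among them, have processed pseudogenes with near-identical sequence, and the tables list ambiguous and multimapping reads on lines of their own, so reads shared with copies may be missing from these values.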

How the data were processed

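The values came from 11 tables that the authors deposited, each comparing 2 groups with DESeq2 (2.11.40.6, per the submitters' processing notes) after alignment with STAR; annotation, build and use of strand in counting are not given in the sources used here. Per the file headers and values, the base mean deposited for a gene is a signal, its normalised reads as a mean over both groups, the deposited fold change and its standard error are on a log2 scale, the deposited Wald statistic is a score, and the deposited p-value and adjusted p-value are the authors' own. Fold changes had been shrunk by a normal prior 0.278 to 2.06 wide, worked out from the tables. The 4 summary lines of each table were left out.

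The members and lists were chosen with earlier results of these data known. A member was called at an adjusted p below 0.05. Differences between tables were divided by the combined standard error of both, tested two-sided and adjusted over all genes with base means of at least 10. In each comparison the 4 highest and 4 lowest called members with base means of at least 100 were named, with the kinases and every member called in a difference test. Every comparison's deposited test and every list is from the whole table.

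Base means are sums of whole reads times a step for each library. The steps were read from genes with a single read, and the reads of all libraries of an experiment were solved as the integers that give its 3 or 7 tables (relative tolerance 2e-14). This held for 38465 of 38466 genes in the first and 38909 of 38909 in the second experiment, and for all 38 members in each; a 10 times finer scale gave equal reads for all 38. The reads carry no replicate number. They were tested with limma-voom (limma 3.58.1, R 4.3.3) over genes with a mean of at least 10 reads, an alternative chosen after seeing the data. Scripts (Python 3.11.15) were tested on simulated data.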

Additional observations from a re-analysis of the deposited data

Results flagged for a closer look

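The response to arsenite of 9 members differed between knockout cells and a rescue by the test of the difference of deposited log2 fold changes, rescue minus knockout, adjusted over all genes tested. Of all genes, 1.82% had a higher and 2.68% a lower response with wild-type G3BP1, and 4.04% and 3.08% with the NTF2-deletion form. With wild-type G3BP1 the members' differences were 0.70 for HNRNPH3, 0.24 for HNRNPK, 0.23 for HNRNPUL1, 0.20 for HNRNPU, -0.32 for SRSF3 and -0.47 for TRA2B. With the NTF2-deletion form they were 0.64 for HNRNPH3, 0.26 for HNRNPK, 0.21 for HNRNPA1, -0.33 for SRSF3, -0.32 for SRSF5, -0.46 for TRA2B and -0.58 for CLK1. HNRNPH3, HNRNPK, SRSF3 and TRA2B were among the calls for both forms, and both tests use the same 4 knockout libraries. With differences centred on their median, 4 members were called for wild-type G3BP1 (4.45% of genes) and 6 for the deletion form (7.03%). No cause was tested.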

How the results depend on the processing

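The Wald statistics had spreads of 1.29 to 9.34, and dividing by them left few members, given with the share of all genes called in the same way: 0 in RIP (0.00875%), 0, 1 and 1 in the first experiment (knockout against wild type, knockout against rescue, wild type against rescue; 2.74, 1.77 and 1.52%), 0 in each of the 4 comparisons of a rescue with knockout (1.38 to 1.74%), and 4 and 3 for arsenite in knockout and wild-type rescue (4.16 and 5.00%). A minimum change of 0.5 on the log2 scale left 2, 2 and 1 in the first experiment (23.7, 18.4 and 15.7% of genes), 3, 1 and 0 for arsenite in knockout, wild-type rescue and deletion rescue (10.7, 3.48 and 0.786%), 9 and 11 for rescues against knockout (33.1 and 32.8%) and 10 and 9 with arsenite added (36.1 and 34.5%). For arsenite in wild-type rescue, centring left 7 and an adjusted p below 0.01 left 6 (14.3% of genes); that stricter limit left 3 for the difference between wild-type rescue and knockout (2.93%). limma-voom on recovered reads called 24 members for arsenite in knockout cells (34.8% of 16705 genes), 5 in deletion rescue (12.9%), 14 for the difference of wild-type rescue from knockout (10.7%) and 2 for treated rescues (3.22%). Adjusting the deposited p-values over genes whose base mean reached 10 gave 28 members for wild type against rescue (39.9% of genes). Arsenite gave 13, 9 and 2 in knockout, wild-type rescue and deletion rescue (17.5, 16.5 and 5.73%). Deletion rescue against knockout gave 24 (52.6%). Treated wild-type and deletion rescue against untreated knockout gave 31 and 30 (57.7 and 55.8%).

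Leaving out each library in turn in limma-voom gave 18 to 20, 23 to 25 and 21 to 29 members in the first experiment, in the same order (51.5 to 53.7, 45.0 to 47.5 and 43.3 to 45.6% of genes). Arsenite gave 19 to 22 in knockout (28.0 to 30.5%), 4 to 7 in wild-type rescue (12.2 to 14.9%) and 3 to 6 in deletion rescue (7.02 to 9.63%). Rescue against knockout gave 24 to 27 and 25 to 26 (60.0 to 62.3 and 60.1 to 61.7%), and with arsenite 29 to 32 and 26 to 33 (64.9 to 67.9 and 62.5 to 64.1%). The differences gave 7 to 14 for wild-type rescue minus knockout (6.60 to 10.7%), 8 to 14 for deletion rescue minus knockout (9.83 to 13.1%), 0 in every run for the rescues' arsenite responses and for the untreated rescues, and 1, CLK1, in every run for treated rescues (0.587 to 1.01%). Of 205 called fold changes, 1 turned its sign without a library: HNRNPA0 between treated wild-type rescue and untreated knockout, at -0.02 to 0.20 without 1 knockout library each. Of 175 not called, 58 had such ranges on both sides of 0. Over all fold changes with 1 library left out, 884 were rated the same, 635 moved and 1 reversed. The ratio of group means moved 103 of 380 values by more than the spread of the libraries and turned 0. No paired analysis was possible because the recovered libraries carry no replicate numbers and the deposited tables have no values per library. With 2 libraries per group, low members such as SRSF12 (14.7 to 26.3 normalised reads in the second experiment) could not be resolved.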
